A study of Mus musculus with 2 samples.

Results

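The genes described here are 36 mouse genes of haem synthesis and breakdown, iron handling and the red cell, among 43346 Ensembl genes measured in embryonic limb. They were chosen by name, with the globins left out: 8 enzymes of haem synthesis, 7 regulators of red cell formation, 10 components of the red cell membrane, 6 genes of iron uptake and transport, 3 of haem breakdown and 2 ferritin chains. The samples were limbs of healthy B6NCrl mouse embryos taken 13.5 days into development (E13.5), with males and females pooled and no treatment named. Each library was total RNA-seq of RNA longer than 200 nt from 10 ng, with synthetic ERCC transcripts added. The labels form 1 group of 2 libraries with biological replicate numbers 1 and 2, under separate biosample entries but a common donor entry. Whether the limbs were forelimbs or hindlimbs is not stated. There is no second condition, so no p-value is given, and the difference between the libraries, which may be technical, is the only measure of error. The libraries held 31252996 and 42301381 expected counts over Ensembl genes. For genes with at least 10 counts in both, the common coefficient of variation beyond counting error was 5.19%. Genes at low counts vary more than this between the libraries.

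Haem is an iron-containing ring that gives haemoglobin its oxygen binding, and every cell with mitochondria also makes some of it for cytochromes and other enzymes. Red cell precursors import iron bound to transferrin through the transferrin receptor, move it into mitochondria and insert it into the ring in the last step of haem synthesis. Their genes for haem, globin and membrane proteins are known targets of the factors GATA1, KLF1 and TAL1. Cells in general store spare iron in ferritin, export it through ferroportin and free it from old haem with haem oxygenases. Limb at this stage holds circulating red cells of the embryo and newly formed vessels, muscle and macrophages, and in such bulk tissue fewer cells of a type and less RNA per cell cannot be told apart.

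Several of these messages carry an iron responsive element, a hairpin that iron regulatory proteins bind when iron is scarce. In the 5′ untranslated region a bound element is known to block translation, and in the 3′ untranslated region it is known to protect the message from decay. Transcript sequences of GENCODE M21 on GRCm38 were searched for this hairpin: an unpaired C, 5 paired bases, a loop of CAGTGN whose last base is not G, and at least 4 of 6 pairs in the lower stem. The letters matched in 5 of the 36 genes and in 35 of 21901 coding genes, 0.160% of them. The 29-base elements are shown 5′ to 3′ in transcript letters with the CAGTG of the loop in capitals, because they are the sequence feature that ferritin, the transferrin receptor, ferroportin and the erythroid haem enzyme share.
Fth1: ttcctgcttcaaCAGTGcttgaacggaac
Ftl1: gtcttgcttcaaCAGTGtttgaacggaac
Slc40a1: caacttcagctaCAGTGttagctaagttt
Alas2: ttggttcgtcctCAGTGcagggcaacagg
Tfrc element 1: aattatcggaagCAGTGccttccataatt
Tfrc element 2: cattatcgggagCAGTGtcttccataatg
Tfrc element 3: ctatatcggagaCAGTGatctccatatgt
Tfrc element 4: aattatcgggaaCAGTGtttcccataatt

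The elements of Fth1 (chr19:9982732-9982760, plus strand), Ftl1 (chr7:45459779-45459807, minus strand), Slc40a1 (chr1:45925465-45925493, minus strand) and Alas2 lie in the 5′ untranslated region. The Alas2 element is cut by an intron, with its first bases from chrX:150547458-150547485 and its last from position 150552149. The 4 Tfrc elements lie on the plus strand of chromosome 16 in the 3′ untranslated region, the first at chr16:32631219-32631247 and the last at chr16:32631710-32631738. The 2 ferritin elements are identical at 26 of 29 positions. Counted from 1 at the 5′ end of the element, Ftl1 differs from Fth1 by T1G, C4T and C18T. With 4 of 5 upper pairs allowed, 6 of the 36 genes and 293 coding genes matched, and Epb42 was the gene added. Slc11a2, for which such an element is known in some transcripts, was not matched by these letters.

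The transcripts with an element carried most of each gene. For Fth1 the share of the gene TPM was 100% in both libraries, for Ftl1 97.8% and 97.3%, and for Slc40a1 94.4% and 94.9% in replicates 1 and 2. For Alas2 it was 62.7% and 72.1%. Alas2-202, with 29.0% and 19.9% of the gene, was not counted, because it begins 1 base inside the hairpin and lacks only that base. Tfrc-201, the transcript with all 4 elements, held 67.8% and 55.9% of Tfrc, and most of the rest were transcripts with retained introns. Of the genes that encode the iron regulatory proteins, Aco1 stood at 41.6 and 43.2 TPM and Ireb2 at 25.9 and 29.6 TPM. Both were named after their values were seen.

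TPM, the deposited unit of level, divides the reads of a gene by its effective length and by the library total, so it allows levels of genes to be compared. In the sentences that follow a pair of values is replicate 1 and then replicate 2. Of the 36 genes 31 reached 1 TPM in each library and count as detected, against 34.6% of all Ensembl genes and 61% of protein-coding genes. The 5 below that level in at least 1 library were Gata1, Gfi1b, Rhag, Epb42 and Sptb, all regulators or membrane genes, and replicate 1 alone would have given 33 detected. The median over the 36 genes was 13.0 TPM, against 4.79 TPM for protein-coding genes and 17.2 TPM for the 14986 detected genes. The haem enzymes, iron genes, breakdown genes and ferritin chains were all detected.

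**Figure D1:**
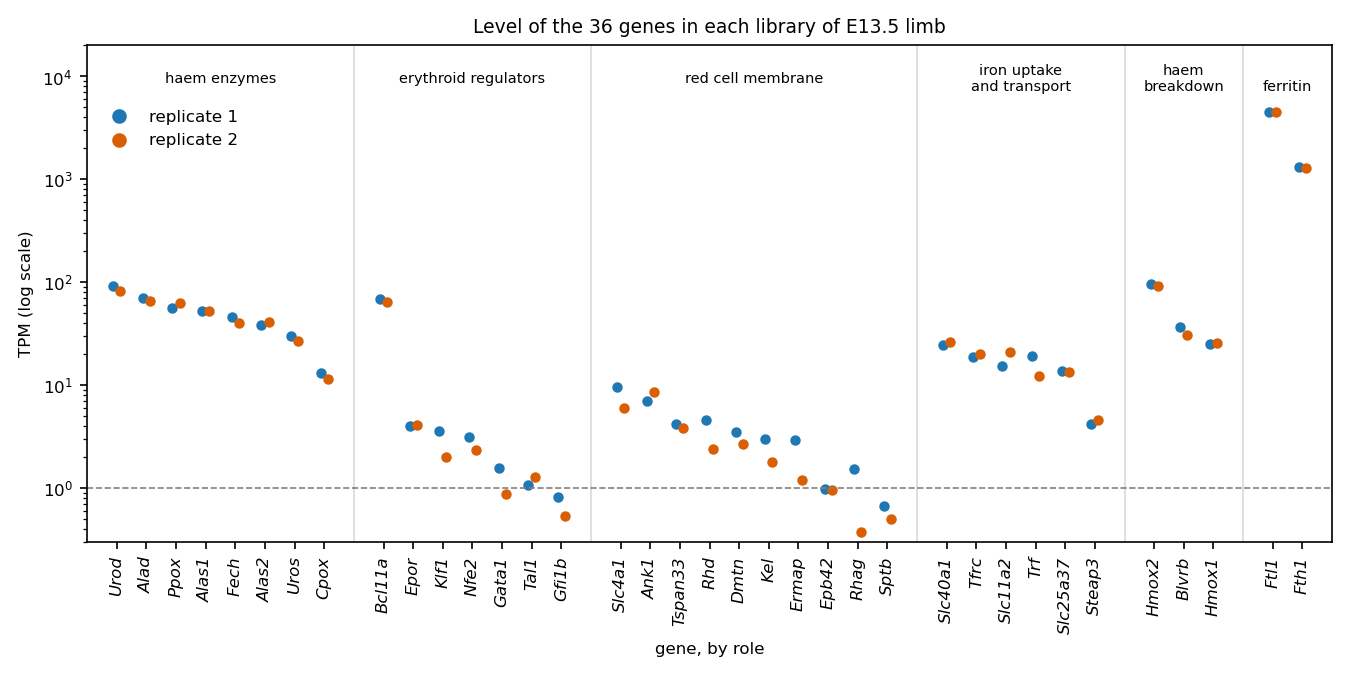
Level of each of the 36 genes in TPM on a log axis, grouped by role and ordered by mean within a role, with 1 point for each library and a dashed line at 1 TPM. The 2 ferritin genes lie at 1302 TPM and above, the haem enzymes between 11.6 and 91.9 TPM, and most erythroid regulators and membrane genes below 10 TPM.

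Haem synthesis starts in the mitochondrion with the joining of glycine and succinyl-CoA by aminolevulinate synthase. Alas1, the form found in all tissues, was at 52.0 and 52.1 TPM, and Alas2, the X-linked form of red cell precursors, was at 38.0 and 40.6 TPM. Alas1 was 1.32-fold higher, and this difference was larger than the spread between libraries by the rule used for every pair of genes: the same direction in both libraries and a mean log2 ratio of more than 2 times the combined SD between libraries of 500 genes of like level for each gene. That order holds for the genes as a whole and not for the coding transcripts. Coding transcripts made up 55.0% and 52.8% of Alas1 TPM, or 28.6 and 27.5 TPM, and 91.8% and 92.0% of Alas2 TPM, or 34.9 and 37.4 TPM, so the coding messages of the red cell form were the higher in both libraries. The largest other Alas1 form was the non-coding Alas1-206, with 29.3% and 29.7%. No spread was set for these sums. The reads of Alas2 include some shared with other genes, and its exons overlap those of Apex2 on the opposite strand, which was at 22.1 and 22.7 TPM.

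In the cytosolic steps Alad, which joins 2 aminolevulinate molecules, was at 70.9 and 66.3 TPM. Uros, which closes the ring, was at 30.3 and 27.1 TPM. Urod, which trims its side chains, was the highest enzyme by gene TPM, at 91.9 and 82.5. Urod exceeded Uros by 3.03-fold in the mean, with log2 ratios of 1.60 in both libraries. The last steps return to the mitochondrion. Cpox, the oxidase that enters first, was the lowest enzyme at 13.2 and 11.6 TPM, and Ppox, which follows it, was at 56.2 and 62.8 TPM, 4.77-fold higher. Fech, which inserts the iron, was at 45.9 and 40.3 TPM and did not differ from Alas2 beyond the spread: its log2 ratio over Alas2 was 0.27 in replicate 1, which alone would pass the rule, and -0.01 in replicate 2.

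**Figure D2:**
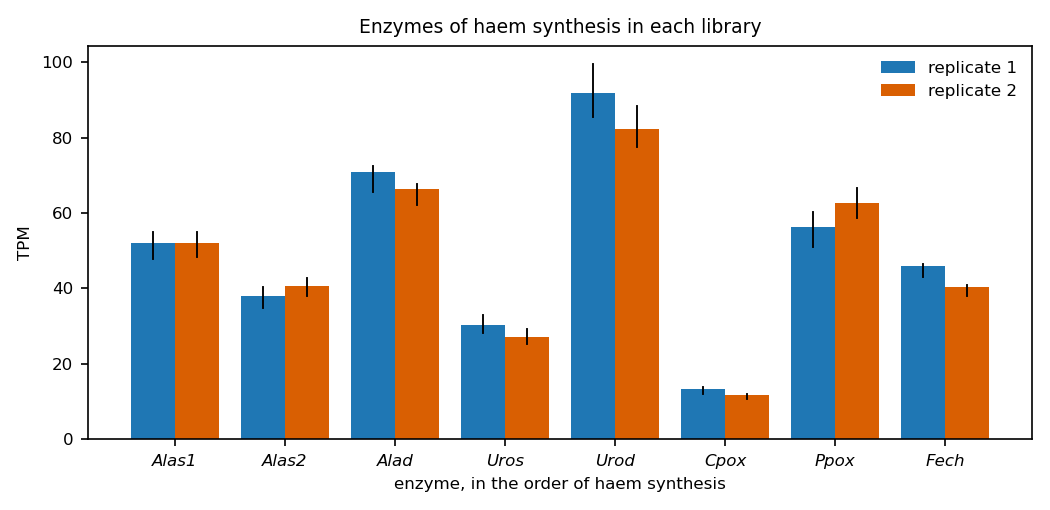
TPM of the 8 enzymes in the order of haem synthesis, with a bar for each library and lines for the credibility interval of TPM that the authors deposited (its level is not given in the sources used here). Levels go up and down along the pathway, from Cpox at 11.6 to 13.2 TPM to Urod at 82.5 to 91.9 TPM, in the same order in both libraries except for Fech and Alas2.

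Ordered by mean gene TPM, the enzymes ran Urod, Alad, Ppox, Alas1, Fech, Alas2, Uros and Cpox. Neighbours in that order differed beyond the spread except Ppox with Alas1, which would pass on replicate 2 alone (0.27), and Fech with Alas2, which would pass on replicate 1 alone (0.27). Alad over Ppox had log2 ratios of 0.33 and 0.08 and would not pass on replicate 2 alone, and Alas1 over Fech, at 0.18 and 0.37, would not pass on replicate 1 alone. With expected counts, not divided by length, both reversed, to -0.74 and -0.34. Ppox needs a reservation, because its gene level is not mainly the coding message: transcripts annotated with a retained intron held 50.9% and 52.0% of its TPM, and the coding Ppox-201 was at 27.6 and 28.4 TPM. Its exons also overlap those of B4galt3 on the opposite strand, which stood at 70.9 and 77.7 TPM, and the use of strand in counting is not given in the sources used here, so reads of the 2 genes cannot be told apart. Retained introns also held 25.4% and 26.6% of Urod. Its coding transcripts stood at 65.5 and 60.6 TPM, below those of Alad at 70.1 and 66.1 TPM. Coding transcripts of Fech, at 45.9 and 40.3 TPM, stood above those of Alas1 (28.6 and 27.5 TPM) and Ppox (27.6 and 29.8 TPM). The order given above is therefore that of gene TPM and not of coding transcripts, for which no spread was set. Fech and Cpox had a single transcript each in the tables, and Alad-201 held 97.9% and 98.9% of Alad. In all, the 8 enzymes took 0.0454% and 0.0428% of the counts.

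The other genes of the haem pathway on a list of 23 were detected in 21 cases, with a median of 29.5 TPM. The highest was Pgrmc1, a haem-binding membrane protein, at 284 and 291 TPM. It was followed by Tmem14c, which is needed to move porphyrin intermediates into mitochondria, at 162 and 157 TPM, and by the mitochondrial carrier Slc25a39 at 143 and 150 TPM. The lowest was Hrg, a plasma protein that binds haem, at 0.03 and 0.02 TPM from 1 count in each library. The plasma haem scavengers Hrg and Hpx were the 2 genes of the list that were not detected.

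Among the erythroid regulators 5 of 7 were detected, and 1 stood far above the rest. Bcl11a, the repressor known for silencing embryonic globin genes and also active in neurons and lymphocytes, was at 68.2 and 63.6 TPM from 5104 and 6493 counts. Epor, the receptor of erythropoietin, was at 3.97 and 4.12 TPM. Klf1, the factor that drives the adult beta-globin gene, was at 3.61 and 2.01 TPM. Nfe2, the blood cell subunit of the NF-E2 factor, was at 3.11 and 2.34 TPM. Gata1, the lineage's defining factor, was at 1.56 and 0.88 TPM, and Tal1, its partner, at 1.07 and 1.28 TPM. Gfi1b, a repressor of red cell and platelet precursors, was lowest at 0.82 and 0.53 TPM from 28 and 22 counts. Bcl11a exceeded Gata1 by 51.7-fold and Epor by 15.9-fold, both beyond the spread. Below Bcl11a no neighbours in the order differed beyond it, and Klf1 and Nfe2, each 2.19-fold above Gata1 in the mean, did not pass either.

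The level of Bcl11a was also divided among forms. Bcl11a-204, a coding transcript of 191 residues, held 42.7% and 39.8% of its TPM, and Bcl11a-202, which codes for 835 residues, 30.4% and 32.7%. The retained-intron transcript Bcl11a-205 held 15.8% and 14.8%. By counts, which are not divided by length, Bcl11a-202 led with 49.9% and 52.3%. Klf1 and Epor each had 1 transcript in the tables, and Tal1-201 held 92.5% and 77.8% of Tal1.

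The red cell membrane genes had a median of 2.74 TPM, close to the 2.73 TPM of the regulators, and 7 of 10 were detected. Slc4a1, the anion exchanger band 3 and the main protein spanning the red cell membrane (chr11:102348824-102366203, minus strand), was at 9.69 and 5.98 TPM. The spectrin network below it was scarce by these measures: Sptb, erythroid beta-spectrin, was at 0.67 and 0.50 TPM, and Epb42, protein 4.2, which ties band 3 to ankyrin, at 0.97 and 0.96 TPM. Non-coding transcripts held 27.1% and 62.0% of Epb42 TPM, and its coding transcripts stood at 0.71 and 0.36 TPM. Dmtn, the actin-bundling dematin, was at 3.52 and 2.70 TPM. Rhd, of the Rh blood group complex, was at 4.58 and 2.38 TPM, and its partner Rhag, the Rh-associated glycoprotein, at 1.52 and 0.37 TPM from 71 and 23 counts. Tspan33, a tetraspanin of erythroid precursors, was at 4.21 and 3.87 TPM. Kel, the Kell blood group protease, was at 2.97 and 1.78 TPM and Ermap, the Scianna blood group protein, at 2.91 and 1.19 TPM. By gene TPM, Slc4a1 exceeded Epb42 by 7.24-fold and Rhag by 8.84-fold, beyond the spread. Rhd exceeded Rhag by 3.90-fold, also beyond it, although replicate 1 alone, with a log2 ratio of -1.53 for Rhag over Rhd, would not pass. No neighbours in the order of the 10 genes differed beyond the spread. Alas2 stood 5.11-fold above Slc4a1, also beyond it.

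Ank1, ankyrin 1, which links band 3 to spectrin (chr8:22974844-23150497, plus strand), was at 7.06 and 8.61 TPM, 11.6-fold above Sptb. Its transcripts show what that level is made of. Long transcripts of 5000 nt or more, the class that encodes red cell ankyrin, held 7.53% and 7.02% of Ank1 TPM, or 0.53 and 0.61 TPM. Transcripts under 2000 nt held 92.5% and 92.6%. The main ones were Ank1-208, which codes for 155 residues and took 70.5% and 52.1%, and Ank1-201, which codes for 156 residues and took 22.0% and 40.5%. They begin 164186 and 164261 nt into the gene, close to its 3′ end. Small ankyrin 1 of this size is known from the sarcoplasmic reticulum of striated muscle. Muscle markers were plentiful in the libraries, with 12 of 12 detected and summed levels of 1729 and 1762 TPM; their part in the Ank1 level was not tested. By counts the short transcripts held 69.7% and 68.0%, so the short forms led on that scale too. The long transcripts, at 0.53 and 0.61 TPM, stood beside Sptb at 0.67 and 0.50 TPM.

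Promoters of these genes were read from RefSeq on GRCm38.p6 over 250 bases before each start, and 26 of the 36 genes had an entry; Fech, Nfe2, Slc4a1, Ank1, Dmtn, Trf, Slc25a37, Slc11a2, Slc40a1 and Hmox1 were not matched. The letters of a GATA site (GATA with A or T before it and A or G after it, on either strand) occurred in 15 of the 26 genes, against 29.7% of all genes. By promoter they occurred in 15 of 38, against 26.5% of all promoters. A gene counts if any of its promoters matches. The 26 genes have 38 promoters and all 27025 genes have 32851, which favours the 26 in the count by gene. Among the 14 matched regulators, membrane genes and Alas2, 10 had them. Letters of a CACCC box (CCNCNCCC, either strand) occurred in 17 of 26 genes and in 48.5% of all genes, an E-box (CANNTG) in 17 of 26 and in 69.3%, and an NF-E2 site (TGAGTCA, either strand) in 1 of 26 and in 5.16%. By promoter these were 22 of 38 against 45.9%, 22 of 38 against 66.2% and 1 of 38 against 4.46%. The 150 bases before a start are shown for 4 erythroid genes with GATA letters near it. They are also shown for the inner start of Gata1, which has CACCC but no GATA letters there. For Klf1, Alas2 and Rhag the stretch ends at a GENCODE start upstream of the RefSeq start, and for Rhd and Gata1 at the RefSeq start. Both kinds of letters are in capitals, and a match describes the letters and is not a measured binding site.
Klf1, chr8:84901778-84901927, plus strand: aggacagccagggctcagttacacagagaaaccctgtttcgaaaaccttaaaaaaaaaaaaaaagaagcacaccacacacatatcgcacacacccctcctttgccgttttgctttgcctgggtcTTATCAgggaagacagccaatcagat
Alas2, chrX:150547225-150547374, plus strand: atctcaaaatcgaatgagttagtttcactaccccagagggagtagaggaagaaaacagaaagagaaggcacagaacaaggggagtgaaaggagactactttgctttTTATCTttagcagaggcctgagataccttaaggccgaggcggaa
Rhag, chr17:40810976-40811125, plus strand: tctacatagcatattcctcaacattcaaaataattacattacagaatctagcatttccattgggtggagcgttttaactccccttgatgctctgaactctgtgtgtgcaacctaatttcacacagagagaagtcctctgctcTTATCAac
Rhd, chr4:134864386-134864535, plus strand: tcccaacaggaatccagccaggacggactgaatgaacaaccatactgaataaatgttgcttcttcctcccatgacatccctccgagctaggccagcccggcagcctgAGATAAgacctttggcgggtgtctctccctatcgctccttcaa
Gata1, chrX:7967911-7968060, minus strand: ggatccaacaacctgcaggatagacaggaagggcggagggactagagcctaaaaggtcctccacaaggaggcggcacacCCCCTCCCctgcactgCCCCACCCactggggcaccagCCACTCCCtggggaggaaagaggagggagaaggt

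Genes of iron uptake and transport stood between 4.15 and 26.1 TPM, all 6 detected. Slc40a1, ferroportin, the known exporter of iron from cells, was highest at 24.6 and 26.1 TPM. Tfrc, the transferrin receptor that brings iron in, was at 18.6 and 20.1 TPM, 1.31-fold below ferroportin and beyond the spread. That call rests on division by length: with expected counts the log2 ratio of Tfrc over Slc40a1 was -0.10 and did not pass. Trf, the transferrin of plasma, made chiefly by the liver (chr9:103204001-103230444, minus strand), was at 19.4 and 12.2 TPM. Slc11a2, the DMT1 transporter that takes iron out of the endosome, was at 15.4 and 20.8 TPM. Slc25a37, mitoferrin 1, which carries iron into the mitochondria of red cell precursors, was at 13.7 and 13.4 TPM. Steap3, the ferrireductase that reduces iron in the endosome, was lowest at 4.15 and 4.60 TPM, 3.05-fold below Slc25a37 and beyond the spread. The middle of the order was not settled: Tfrc with Slc11a2, Slc11a2 with Trf and Trf with Slc25a37 did not differ beyond the spread, although Slc11a2 over Trf would pass on replicate 2 alone (0.76) and Trf over Slc25a37 on replicate 1 alone (0.50). Slc11a2 exceeded Slc25a37 by 1.32-fold by the rule, but the log2 ratio of Slc25a37 over Slc11a2 was only -0.17 in replicate 1, which alone would not pass, and -0.63 in replicate 2. Likewise Slc40a1 over Slc11a2, 1.41-fold, had log2 ratios of 0.67 and 0.33, and replicate 2 alone would not pass. Tfrc over Trf did not pass with both libraries, at log2 ratios of -0.06 and 0.71, and replicate 2 alone would pass.

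The transcript mix of the iron genes bears on what the gene level means. Retained-intron transcripts held 28.8% and 38.2% of Tfrc, so the coding Tfrc-201 stood at 12.6 and 11.2 TPM. Slc25a37-203, also with a retained intron, held 25.9% and 24.7% of mitoferrin 1. Slc11a2 was divided between Slc11a2-201, coding for 568 residues, with 48.5% and 46.2%, and Slc11a2-205, coding for 561 residues, with 44.2% and 35.2%. Slc40a1-201 and Steap3-202 each held over 90% of their gene in both libraries.

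On a list of 28 other iron genes 27 were measured and 20 detected, with a median of 7.99 TPM. The highest were Pcbp1 (397 and 378 TPM) and Pcbp2 (87.3 and 83.9 TPM), which chaperone iron in the cytosol and bind RNA, and Glrx5 (150 and 145 TPM) and Iscu (81.7 and 80.1 TPM), which build iron-sulphur clusters in mitochondria. Hamp, the liver hormone hepcidin that closes ferroportin, and Ftmt, mitochondrial ferritin, had 0 counts in both libraries; 3 counts, the upper limit that a count of 0 allows, would be 0.0960 and 0.0709 CPM. Hepcidin was therefore not detectable at this depth.

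Haem breakdown was represented mainly by the constitutive enzyme. Hmox2, the haem oxygenase present in most cells, was at 95.6 and 92.5 TPM. Hmox1, the form induced by haem and stress and abundant in macrophages that clear red cells, was at 24.9 and 25.7 TPM. Hmox2 was 3.70-fold higher, beyond the spread. Its exons overlap those of Cdip1 on the opposite strand, at 63.9 and 68.1 TPM, and its reads are partly shared. Blvrb, a reductase of biliverdin also known for high levels in red cells, was at 36.6 and 30.7 TPM, 1.32-fold above Hmox1 by the rule, although replicate 2 alone, at a log2 ratio of 0.26, would not pass. Markers of macrophages were close to equal in the libraries, with 11 of 14 detected and sums of 186 and 198 TPM. The highest were the complement gene C1qb (33.0 and 34.1 TPM), Fcer1g (31.4 and 32.6 TPM), Lyz2 (26.1 and 27.8 TPM) and Tyrobp (24.6 and 27.2 TPM). Cd163, a haemoglobin receptor, had 2 counts and 0 counts, and Vsig4 had 0 in both.

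Ferritin dominated the 36 genes. Ftl1, the light chain, was at 4554 and 4527 TPM and ranked 10 among all Ensembl genes by mean TPM. Fth1, the heavy chain, which oxidises iron on its way into the shell, was at 1312 and 1302 TPM and ranked 75. The light chain was 3.47-fold more abundant, with log2 ratios of Fth1 over Ftl1 of -1.79 and -1.80. The 2 chains held 0.330% and 0.321% of all counts, out of 0.434% and 0.418% for the 36 genes together, and the globins held 0.754% and 0.753%. The exact 95% binomial intervals for the ferritin share were 0.327% to 0.332% and 0.319% to 0.323%; they cover counting error only. Both ferritin genes have counts that are not whole, so part of their reads was divided with other entries, as can happen with the many known ferritin pseudogenes. A short microRNA entry within Ftl1, Gm22133, is listed at 3636 and 4388 TPM, so the division of reads between these 2 entries is uncertain.

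Most of these genes were less than 2-fold apart between the libraries, and those at 2-fold or more were Rhag, Rhd, Gata1 and Trf. Ratios between libraries are replicate 2 over replicate 1, from counts scaled by TMM, a normalization that takes most genes as equal, with 0.5 added. All 36 genes had a mean of at least 10 counts, as did 17982 genes in all. A 2-fold or greater difference was seen in 4 of the 36, all lower in replicate 2, against 1.46% of all genes in that direction. None was 2-fold higher in replicate 2, against 1.05% of all genes. In total 26 of 36 were lower by any amount, against 49.4% of all genes.

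The largest of these differences was that of Rhag, with 71 and 23 counts and a log2 ratio of -2.03 (counting interval -2.80 to -1.36). Trf, with 921 and 604 counts, had a ratio of -1.04 (-1.19 to -0.89), far outside the SD of 0.15 among the 500 genes nearest in count. On the scale of gene TPM Trf was closer, 19.4 against 12.2, but its retained-intron share differed at 8.27% and 29.1%. The coding transcripts of Trf stood further apart, at 17.8 and 8.65 TPM. Rhd had a ratio of -1.04 with 127 and 83 counts, and Gata1 one of -1.02 with 56 and 37 counts. Both lie at low counts, as does Rhag, and the SD of neighbouring genes was 0.87 for Rhd and 0.60 for Gata1. The interval given for Rhag covers counting error only. Slc4a1 was less than 2-fold apart, but with 885 and 736 counts its ratio of -0.70 was large against a neighbour SD of 0.14. Klf1 had a ratio of -0.86, Ermap -0.77 and Gfi1b -0.76. By the deposited TPM intervals, 8 of the 36 did not overlap between libraries (Fech, Klf1, Rhag, Rhd, Slc4a1, Ermap, Dmtn and Trf), all lower in replicate 2, against 9.9% of all genes in either direction.

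Over the 17 regulators and membrane genes the median log2 ratio was -0.56, and 14 were lower in replicate 2. Over the other 19 genes it was -0.06, with 12 lower, and over protein-coding genes it was 0.01. Red cell messages did not all follow this: Alas2 had a ratio of 0.09 and 7 globins a median of -0.003. Of the 17 genes, Ank1 (0.16), Tal1 (0.14) and Epor (0.03) were not lower. The Ank1 ratio is not read as that of a red cell message, since transcripts under 2000 nt held 92.5% and 92.6% of its TPM. Its transcripts of 5000 nt or more were not lower in replicate 2 either, at 0.53 and 0.61 TPM from 87.2 and 134 counts. Other erythroid genes showed a similar division. Of 29 such genes with enough counts, 6 were at least 2-fold lower in replicate 2 and none was 2-fold higher, with a median of -0.11. Among the 6 were Hemgn (-2.64), Cldn13 (-2.13), Pklr (-1.96) and Icam4 (-1.78), named after their values were seen. The 4 highest of that list were instead near 0, namely Bnip3l (-0.04), Ldb1 (-0.10), Epb41 (0.12) and Gypc (-0.05), genes that many cell types express. Its lowest gene, Trim58, had 4 counts in each library.

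**Figure D3:**
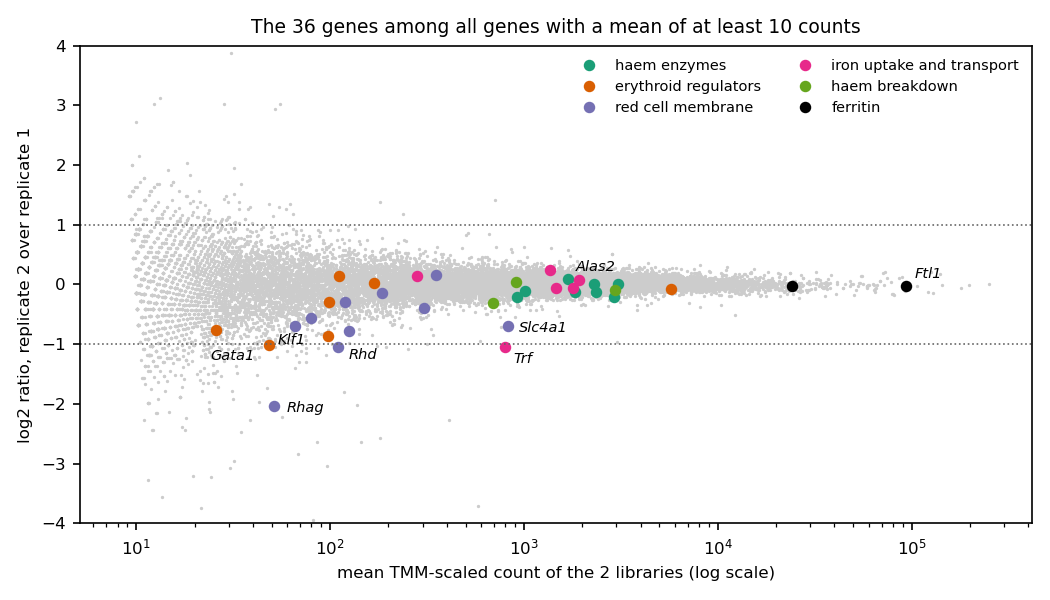
Log2 ratio of replicate 2 over replicate 1 against the mean TMM-scaled count on a log axis, for the 17982 genes that reached 10 counts on average in grey and the 36 genes coloured by role. Dotted lines mark 2-fold, and 43 genes lie beyond the axis at 4 on either side. Rhag, Rhd, Trf and Gata1 lie at or below the lower line, and Slc4a1 and Trf stand clear of genes of like count.

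Markers of another tissue moved in the same direction. All 12 liver markers with at least 10 counts were lower in replicate 2, 10 of them 2-fold or more, with a median log2 ratio of -2.74. Their summed level over 14 genes was 81.3 TPM in replicate 1 and 25.0 TPM in replicate 2. Among the highest, Afp, the fetal plasma protein, was at 22.3 and 1.73 TPM, Apoa2 at 12.9 and 1.68 TPM, Rbp4 at 15.9 and 9.84 TPM and Apoc1 at 8.17 and 7.09 TPM. Alb, which defines hepatocytes, was at 5.28 and 0.86 TPM, and the lowest, Hnf4a, at 0.15 and 0.11 TPM. No liver marker was at 0 in both libraries. At this stage the fetal liver is the main site where red cells form, and transferrin is one of its products. The part of liver RNA in the lower Trf, Rhag and other red cell values of replicate 2 was not tested.

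Lists for other cell types had medians closer to 0. The median log2 ratio was -0.18 over 10 platelet and megakaryocyte markers, whose sums were 71.2 and 58.2 TPM, and the highest were Pf4 (41.4 and 33.5 TPM), Rab27b (7.29 and 7.05 TPM), Vwf (5.52 and 5.69 TPM) and Ppbp (5.53 and 3.39 TPM), with Selp lowest at 0.06 and 0.02 TPM. It was 0.07 over 11 macrophage markers, 0.01 over 10 endothelial markers, led by Egfl7 (87.4 and 85.7 TPM), 0.06 over 12 muscle markers, led by Actc1 (692 and 686 TPM), and 0.05 over 8 Schwann precursor markers, led by Ngfr (24.4 and 28.7 TPM). None of the genes of these 5 lists with enough counts was 2-fold apart. Deposited TPM intervals nevertheless did not overlap for 5 of 12 muscle, 3 of 12 platelet, 2 of 10 endothelial, 2 of 8 Schwann precursor and 0 of 14 macrophage markers. They did not overlap for 6 of 8 globins either, against 9.9% of all genes with at least 10 counts on average. Of the 10 platelet markers with enough counts, 8 were lower in replicate 2, against 49.4% of all genes.

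**Figure D4:**
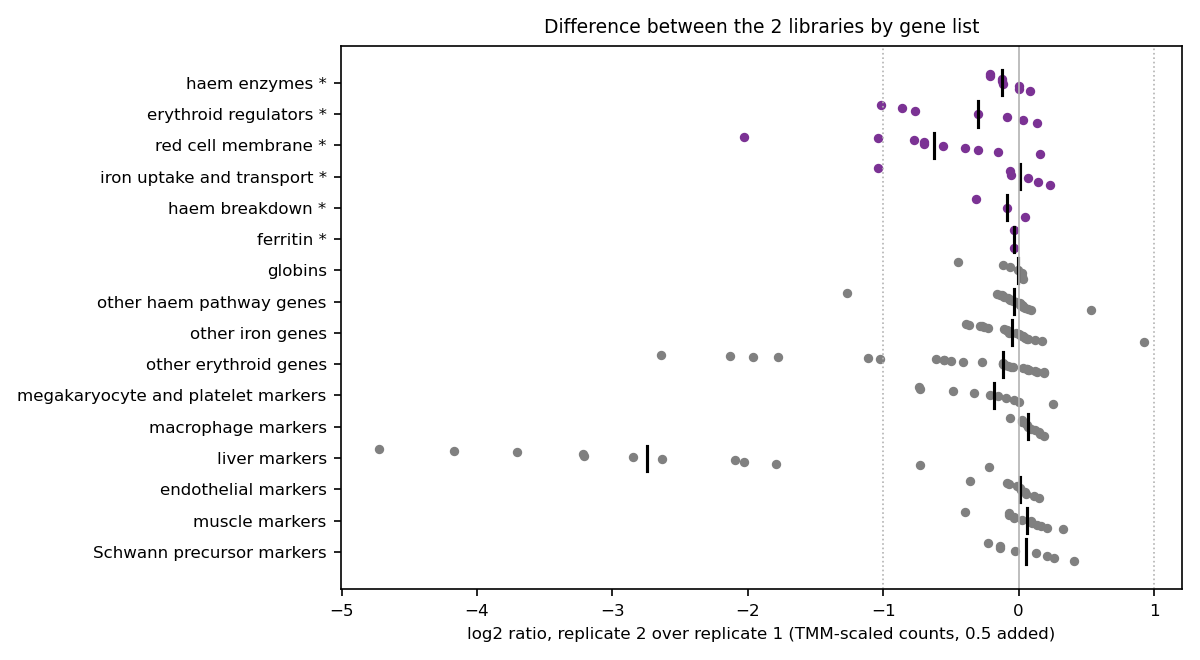
Log2 ratio of replicate 2 over replicate 1 for each gene with 10 counts or more on average, in 1 line per gene list, with the median as a black bar, the 36 genes in purple (lists with an asterisk) and other lists in grey. Liver markers lie at a median of -2.74 and red cell membrane genes at -0.63, while globins and muscle, endothelial and macrophage markers lie near 0.

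Across the 31 detected genes, 11 had 1 transcript with at least 90% of the gene in both libraries, and 30 had the same leading transcript in both. The exception was Uros, led by Uros-204 in replicate 1 (36.2%) and by Uros-203 in replicate 2 (29.7%), both of which code for 265 residues. Cpox, Fech, Klf1, Epor and Fth1 have 1 annotated transcript each, so their leading transcript and its share of 100% were fixed in advance. In 9 of the 31, retained-intron transcripts held at least 10% in both libraries. The shares of all detected genes were not computed for these counts, so they do not say whether the set is unusual. After Ppox and Tfrc, the largest shares were in Urod and Slc25a37. Total RNA also holds unspliced nuclear transcripts, and such shares need not be shares of translated messages. For the weakly expressed Kel and Ermap the retained-intron shares rest on few counts, such as 4.32 and 1.96 for Kel-203.

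**Figure D5:**
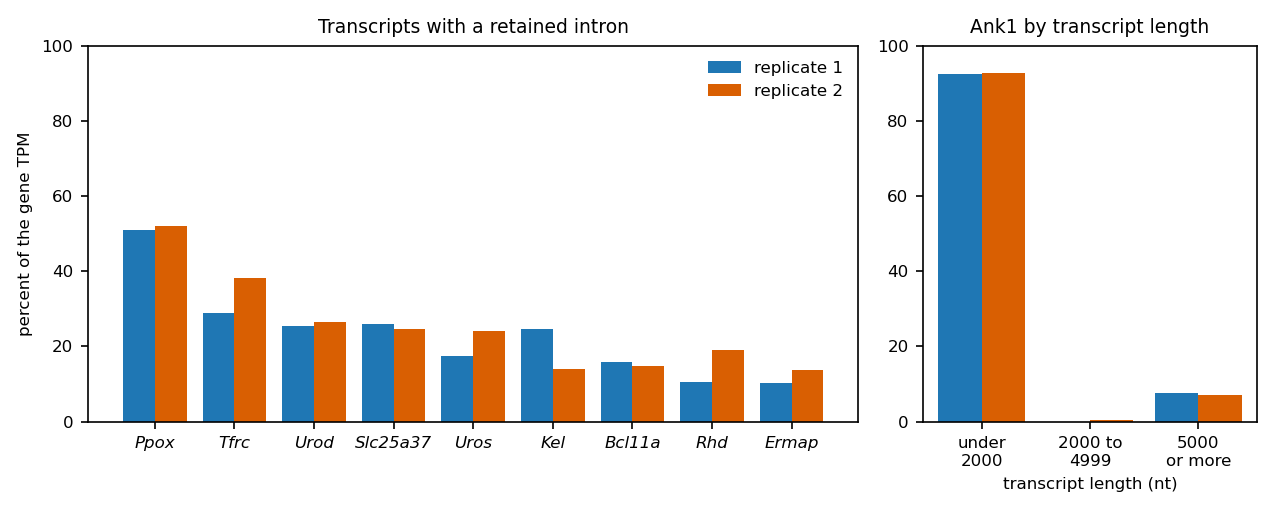
Left, percent of the gene TPM in transcripts with a retained intron, for the 9 detected genes in which it was at least 10% in both libraries, with a bar for each library. Right, percent of Ank1 TPM by transcript length class, where transcripts under 2000 nt hold 92.5% and 92.6%. Ppox is the gene with the largest retained-intron share, 50.9% and 52.0%.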

How the data were processed

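Total RNA-seq of E13.5 mouse limb was analysed from the gene and transcript tables of 2 libraries, on mm10 per the labels. Text files that accompany the tables name annotation M4. How reads were aligned and quantified, and whether strand was used, is not given in the sources used here. The deposited expected counts divide shared reads among transcripts and need not be whole. The authors' TPM and FPKM, per the file headers, are counts divided by effective length and sequencing depth. IsoPct, as deposited, is the percent of the gene TPM in each transcript. Deposited bounds of TPM intervals were treated as a signal whose level is not stated.

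Rows whose identifiers are bare numbers (26248) and spike-ins (2.11% and 2.07% of counts) stayed out of library totals. Symbols matched 42462 of 43346 Ensembl identifiers, and positions came from GENCODE M21. Expected counts were rounded for TMM and the common dispersion in edgeR 4.0.16 (R 4.3.3), with DESeq2 1.42.0 size factors as an alternative. Python 3.11.15 (pandas 2.3.3, numpy 2.4.6, scipy 1.17.1) gave all else. Pair ratios used TPM with 0.1 added. With 1 group, no comparison between conditions was made. The text names all 36 genes, the 4 highest and the lowest of other lists in full or in part, and transcripts at 10% or more of their gene where they bear on a value. Hpx, Cd163, Alb and some erythroid genes were added after their values were seen. Ftl2, Ahsp and Fam46c on the lists were not matched, and some listed genes are not reported here. The genes and lists were chosen with earlier results of these data known. Intervals for counts are exact (Clopper-Pearson, 95%) and cover counting error only.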

Additional observations from a re-analysis of the deposited data

How the results depend on the processing

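The count of detected genes, 31 of 36, ranged from 21 (5 TPM or more) to 36 (10 expected counts or more), and from 31 to 33 when a library was left out. The count of 4 genes 2-fold lower in replicate 2 became 2 with 5 added to counts, where Gata1 (-0.93) and Rhd (-0.996) no longer passed, and 2 with a mean of at least 100 counts, where Rhag and Gata1 were not tested. It became 8 when non-overlapping TPM intervals were used, a rule added after the data were seen. With the spike-in total it was 3, since Gata1 (-0.99) no longer passed. The 16 of 24 pairs past the spread ranged from 15 to 20, and leaving out a library gave 15 in both cases. With expected counts in place of TPM, which are not divided by length, Alad over Alas1 (-0.32), Blvrb over Hmox1 (-0.41) and Slc25a37 over Slc11a2 (0.11) reversed and Tfrc over Slc40a1 (-0.10) no longer passed. Of neighbours in order, Alad over Ppox (-0.74) and Alas1 over Fech (-0.34) reversed and Uros over Cpox (0.14) no longer passed, and neighbours in order past the spread were 22 in place of 11. A spread from median absolute deviations, added afterwards, raised the pairs to 19. The pairs added were Klf1 over Gata1, Nfe2 over Gata1 and Dmtn over Slc4a1. No paired analysis was possible because there is a single group, and the libraries share no replicate number. Levels under about 3 TPM rest on few counts, which limits the order of regulators and membrane genes.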
